A study of Mus musculus with 71 samples.

Results

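The loops described here are the 879 long, weak contacts of the H3K27ac HiChIP list in which neither end lay at a promoter, out of 24244 loops in the whole list. HiChIP captures pairs of DNA fragments that were ligated to each other in fixed chromatin and then pulls down those that carry a given mark, here acetylated lysine 27 of histone H3 (H3K27ac), which marks active promoters and enhancers. Each loop has a pair of anchors and a count of paired-end tags, the read pairs that join them. Loops were chosen on 3 values of the list itself: a distance of at least 100 kb between anchor midpoints, a count of 3 tags or fewer, and no anchor overlapping the window of 2 kb on either side of the transcription start site (TSS) of any GENCODE transcript. The chosen loops therefore had to be long, weak and away from promoters, and these properties are given below as description only.

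The chromatin came from 2 mouse synovial sarcomas (SyS) that express the human fusion SS18::SSX2 (hSS2) from an allele at Rosa26, which was turned on by injection of TATCre protein into the hindlimb at 8 days of life. SyS is a soft tissue sarcoma in which SS18::SSX joins the BAF chromatin remodelers. Whole tumors were dissociated without sorting, so stromal, vascular and immune cells could contribute, and no HiChIP of normal tissue or of another genotype was analysed. The loops of both tumors were merged by the authors into a single list, which holds no value per tumor. For that reason no test between samples was possible, and every interval below is a Wilson 95% interval for a share, or an exact binomial one for a median, that covers counting error only. Reads without molecular identifiers and loops that share an anchor are not independent, which these intervals leave out.

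Enhancers are stretches of DNA, often far from any promoter, at which transcription factors bind and raise the activity of a gene on the same chromosome. They are commonly flanked by nucleosomes with H3K27ac, and groups of them can lie across a gene desert or inside the introns of a large gene. Contacts between such elements are seen where several of them meet in the nucleus, with or without a promoter, and the factor CTCF, bound in convergent orientation, is known to anchor many long contacts.

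Both anchors of 4 of the loops are shown by sequence below, since these loops recur through the results: the Nfib and Sox1 loops are among the 10 with the lowest false discovery rate (FDR), and the Meis2, Hes1 and Sox1 loops were found in both parts of the list. For each anchor, the 200 bases (RefSeq sequence of GRCm38, the mm10 build, plus strand, written 5′ to 3′) were taken that hold the most matches to 6 transcription factor motifs, touch no exon and have at most 20% of their bases in repeats. Capitals mark the matches, which are TGANTCA (AP-1), GGAATG (TEAD), TGTGGTT (RUNX), ACAATG (SOX), TAATTA (homeodomain) and CAGCTG (E-box), on either strand, and overlapping matches share their letters. The stretches were chosen for their matches, so their number here says nothing about how common the motifs are. In order, they lie at chr4:81580458-81580657, chr4:82536956-82537155, chr8:12128045-12128244, chr8:12428310-12428509, chr2:115859303-115859502, chr2:116071887-116072086, chr16:29879299-29879498 and chr16:30188988-30189187.
Nfib loop, left anchor: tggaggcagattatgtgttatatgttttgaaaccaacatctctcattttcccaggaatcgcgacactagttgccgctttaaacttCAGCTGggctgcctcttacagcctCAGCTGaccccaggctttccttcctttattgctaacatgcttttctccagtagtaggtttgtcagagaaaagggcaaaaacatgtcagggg
Nfib loop, right anchor: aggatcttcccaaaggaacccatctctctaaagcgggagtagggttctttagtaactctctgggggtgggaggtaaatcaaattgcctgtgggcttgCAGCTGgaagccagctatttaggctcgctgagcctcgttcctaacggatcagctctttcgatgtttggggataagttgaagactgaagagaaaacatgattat
Sox1 loop, left anchor: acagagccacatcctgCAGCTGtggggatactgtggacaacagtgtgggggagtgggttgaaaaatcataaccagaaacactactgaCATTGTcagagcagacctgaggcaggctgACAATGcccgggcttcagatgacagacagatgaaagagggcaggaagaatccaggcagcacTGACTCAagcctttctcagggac
Sox1 loop, right anchor: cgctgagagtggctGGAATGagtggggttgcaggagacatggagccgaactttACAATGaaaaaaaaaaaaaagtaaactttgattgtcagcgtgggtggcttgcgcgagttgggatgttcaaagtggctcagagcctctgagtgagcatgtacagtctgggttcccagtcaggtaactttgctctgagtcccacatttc
Meis2 loop, left anchor: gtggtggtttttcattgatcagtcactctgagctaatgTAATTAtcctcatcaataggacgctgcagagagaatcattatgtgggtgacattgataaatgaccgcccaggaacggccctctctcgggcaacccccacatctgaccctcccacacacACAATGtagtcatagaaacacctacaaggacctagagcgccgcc
Meis2 loop, right anchor: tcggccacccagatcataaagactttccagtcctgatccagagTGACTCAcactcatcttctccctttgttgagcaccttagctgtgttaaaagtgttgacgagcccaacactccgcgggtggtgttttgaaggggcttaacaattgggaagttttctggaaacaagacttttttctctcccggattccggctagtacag
Hes1 loop, left anchor: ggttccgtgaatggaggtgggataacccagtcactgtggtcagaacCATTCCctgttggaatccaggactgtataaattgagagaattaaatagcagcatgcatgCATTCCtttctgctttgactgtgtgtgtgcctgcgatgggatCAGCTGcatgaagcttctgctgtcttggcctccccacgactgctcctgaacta
Hes1 loop, right anchor: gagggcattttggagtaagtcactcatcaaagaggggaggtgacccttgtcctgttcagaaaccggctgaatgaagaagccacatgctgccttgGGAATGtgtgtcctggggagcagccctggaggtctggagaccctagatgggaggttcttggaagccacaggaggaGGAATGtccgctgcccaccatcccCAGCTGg

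The left anchor of the Sox1 loop held 16 matches over its whole length and its right anchor 8. The printed bases of the left anchor had an E-box, a pair of SOX matches on opposite strands and an AP-1 match. The anchors of the Hes1 loop held 11 and 10 matches, and both printed stretches had a pair of TEAD matches and an E-box. The Nfib loop differed between its ends, with 12 matches in the left anchor and 2 in the right.

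The list was built of 2 parts, each sorted by position, and neither part was assigned to a tumor. Over all loops the first part had a total of 28657 tags and the second 12917. The chosen loops were spread unevenly over them, with 172 loops (239 tags) in the first part and 707 loops (754 tags) in the second. Of all long loops of 3 tags or fewer, the second part held 44.8%, against 80.4% of the loops without a promoter. Put the other way, loops without a promoter made up 1.38% (interval, 1.19 to 1.61) of the 12423 long, weak loops of the first part and 7.0% (6.52 to 7.51) of the 10100 of the second. The gap was there at equal tags as well. Among loops of a single tag the shares were 1.27% (121 of 9503) and 7.05% (664 of 9413), and among loops of 2 tags they were 1.53% (35 of 2291) and 6.43% (39 of 607). At 3 tags the shares were 2.54% (16 of 629) and 5.00% (4 of 80), with intervals of 1.57 to 4.09% and 1.96 to 12.2% that overlap. Since the parts differ this much, values are given for each of them wherever they bear on a result.

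A single tag supported 785 of the 879 loops, 2 tags supported 74 and 3 tags supported 20. Just above the limit, 7 long loops without a promoter had 4 tags and 1 had 5. At the limit on span, the nearest excluded loops measured 95.1, 97.6 and 97.8 kb, and the shortest included ones 100.9, 103.4 and 111.1 kb. At the limit on promoters, the closest included anchors began 2006, 2007 and 2027 bp from a TSS, and the last excluded ones 1974, 1985 and 2000 bp. The FDR of the chosen loops ran from 3.44e-06 to 0.0496 with a median of 0.0132. An FDR under 0.01 was listed for 78 of them (8.87%), against 15.2% of all loops of the list, but tags and span enter the FDR and both were used in the choice. By part of the list the values were 21.5% of 172 loops, where all loops had 21.5%, and 5.80% of 707, where all loops had 7.05%. Among all long loops of 3 tags or fewer the share was 12.5%, with 17.5% in the first part and 6.30% in the second.

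The median span was 380.6 kb, between a lowest value of 100.9 and a highest of 1979 kb. Long, weak loops with 1 promoter anchor (5026 loops) had a median of 487.7 kb and those with 2 (16618 loops) one of 561.2 kb. The gaps differed between the parts of the list. In the second part the medians of loops with 0, 1 and 2 promoter anchors lay close together, at 329.6, 348.3 and 347.9 kb, and in the first part they were 575.5, 694.1 and 677.2 kb. The shortest loop, of 2 tags, joined a pair of sites inside Ebf3, which encodes an early B cell factor, and the longest, of 1 tag, ran from an intron of Myo16, an unconventional myosin, to the region of A230072I06Rik next to Sox1.

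**Figure D1:**
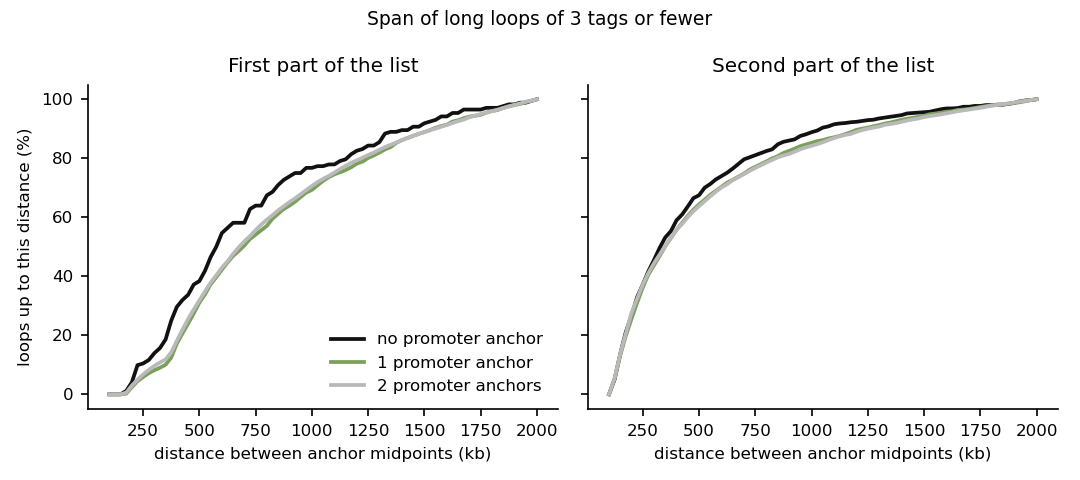
Share of long loops of 3 tags or fewer (y axis, percent) whose anchor midpoints lie up to a given distance apart (x axis, kb), for loops with no, 1 or 2 promoter anchors, in the first (left) and second (right) part of the list. The curve of loops without a promoter lies to the left of the others in the first part (median 575.5 kb against 694.1 and 677.2 kb) and close to them in the second (329.6 against 348.3 and 347.9 kb).

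The loops had 1271 distinct anchors with a median width of 2.30 kb. Of these, 676 (53.2%; 50.4 to 55.9) had their midpoint inside a gene body, nearly all of them in introns (619 anchors, against 57 in exons). The remaining 595 anchors (46.8%) were intergenic. The 2614 other non-promoter anchors of the list had 55.7% (53.8 to 57.6) in gene bodies, whereas 84.8% of the 12979 promoter anchors lay there. The parts of the list differed here. In the first, 44.0% (38.2 to 49.9) of the anchors were in gene bodies against 54.1% (50.9 to 57.2) of the other non-promoter anchors, and in the second 55% (51.9 to 58.0) were against 55.9% (53.5 to 58.2). Distance to genes differed as well. The anchors lay a median of 32.7 kb from the nearest protein-coding TSS, against 21.8 kb for the other non-promoter anchors, and 25% of them (22.7 to 27.5), against 16.6% (15.2 to 18), lay 100 kb or more away. The share 100 kb or more away was 23.4% against 17.3% in the first part, with overlapping intervals, and 25.8% against 16% in the second. Between the anchors of a loop there was a median of 1 protein-coding gene with a TSS, and 158 loops (18%; 15.6 to 20.7) crossed none. With 1 and 2 promoter anchors, 7.96% and 0.987% of long, weak loops crossed none, and the order was the same in the first part (9.30, 4.11 and 0.419%) and the second (20.1, 10.5 and 1.90%). Per Mb of span, the median number of genes crossed was 4.93, against 11.1 and 22.8. These classes are defined by TSSs at the anchors, so their order in genes crossed is tied to the choice of loops. It is given as description only.

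Of the 879 loops, 251 had both anchors inside gene bodies, 235 had both between genes and 393 had one of each. Both anchors had the same nearest protein-coding gene in 221 loops (25.1%; 22.4 to 28.1). In 91 loops (10.4%) both lay inside the same protein-coding gene. These internal loops were most frequent in Dnm3, which encodes a dynamin of membrane fission, with 12 loops among 12 anchors, all in the second part of the list. Lrmda, a gene linked to pigment cells, had 7 of them, and Skap1, an adaptor protein of T cells that lies beside the HoxB cluster, had 6. Auts2, a regulator of brain development, also had 6, and Mecom, a zinc finger transcription factor of early blood cells, had 5. Among the genes whose bodies held the most anchors, Zfp608 had 13 and Agap1, Gse1 and Zfp532 had 6 each, with no internal loop in Zfp608, Agap1 or Zfp532 and 1 in Gse1. The 9 anchors and 5 internal loops in Gm20388 lie in a gene model of 4435 kb that spans several other genes, Gse1 among them.

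Chromosome 18 carried 130 of them, followed by chromosome 8 with 91 and chromosome 11 with 73, while chromosome 10 carried 15. Chromosome 11 also had the most long, weak loops of all, and its 73 were 3.05% of them (2.43 to 3.81), no more than the 3.90% over the whole list. As a share of the long, weak loops of the same chromosome, loops without a promoter reached 18.5% (15.8 to 21.5) on chromosome 18, against 3.43% on all the others together. Chromosome 18 was highest in both parts of the list, at 7.43% (22 of 296 loops) in the first, where the interval overlapped that of the X chromosome, and at 26.5% (108 of 408) in the second. Chromosome 9 had none among 312 long, weak loops of the first part, for an interval that reaches 1.22%, and 19 among 451 in the second.

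**Figure D2:**
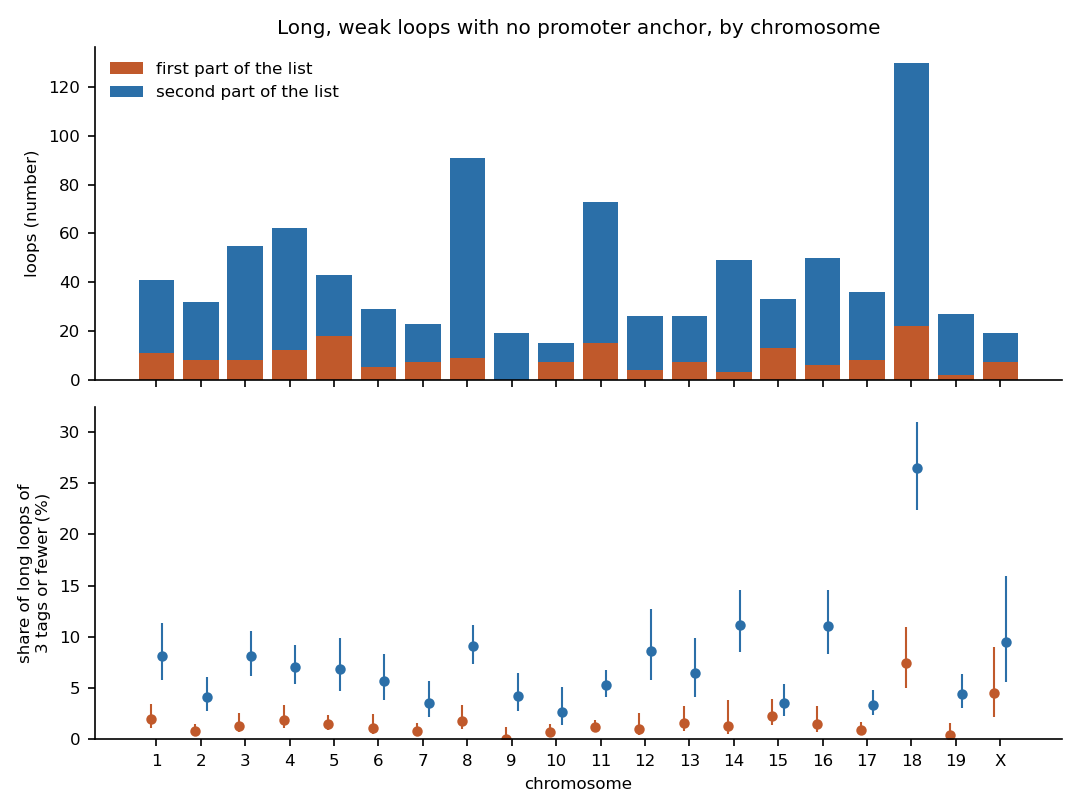
Number of long, weak loops with no promoter anchor on each chromosome, stacked by part of the list (top), and their share of all long loops of 3 tags or fewer on that chromosome in each part (bottom, percent, with Wilson 95% intervals). Chromosome 18 has the most loops (130) and the highest share in both parts, 7.43% and 26.5%.

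Anchors were often shared. Of the 1271, 988 served 1 loop, 175 served 2 and the rest served 3 to 8. Joined through overlapping anchors, the 879 loops fell into 432 chains. Of these chains 316 were single loops, and 24 held 5 or more, which together took in 37.8% of the loops. The 3 largest are drawn in the plot of arcs around Zfp608, Sox1 and Hes1.

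The largest chain held 89 loops (103 tags) over 53 merged anchors and 3341 kb of chromosome 18. It ran over Csnk1g3, which encodes a casein kinase, and Zfp608, which encodes a zinc finger protein. In that range, loops without a promoter were 90 of the 169 long, weak loops (53.3%; 45.7 to 60.6), and 8 protein-coding genes had a TSS there. The range was drawn from the loops of this chain, pooled over both parts. A high share inside it is thus in part fixed by that choice, also within each part. It was 13 of 20 loops in the first part and 77 of 149 in the second. Outside the range the share on the same chromosome was 7.48% (5.54 to 10.0), above that of the other chromosomes, and it was so in each part (9 of 276 loops against 150 of 12127 in the first, 31 of 259 loops against 599 of 9692 in the second). The loops filled 87 of the 1378 pairs that the 53 anchors could form, and 7 sets of 3 anchors were joined all ways. Of the anchors shared by 8 loops each, 3 of 4 were here: in a Zfp608 intron (chr18:54914943-54916820), and between Csnk1g3 and Zfp608 at chr18:54091339-54093040 and chr18:54275969-54281921. All 8 loops of each came from the second part. Zfp608 was the nearest protein-coding gene of 34 anchors and of both ends of 34 loops, and Csnk1g3 of 13 anchors and of both ends of 9 loops. The promoter of Zfp608 itself had 33 loops in the list (65 tags), and that of Csnk1g3 had 4 (5 tags).

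The second chain lay at Sox1, which encodes a transcription factor of neural progenitors that SyS tumors are known to express. It held 34 loops (41 tags) over 19 merged anchors, of which 4 were in the first part and 30 in the second. Of 171 possible pairs 32 were joined, a share that falls as the number of anchors rises and so is not set against the first chain. Sets of 3 anchors joined all ways numbered 15, against 7 in the first chain. The fourth anchor shared by 8 loops was here, in the intergenic region at chr8:12000163-12002702 (1 loop of the first part and 7 of the second), together with one of 7 loops at chr8:12560796-12564337, all of the second part. The anchors nearest to Sox1 were 7, at 5.12 to 81.6 kb from its TSS, and 9 more were nearest to A230072I06Rik, upstream of it. No loop had both anchors nearest to Sox1.

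The third chain, of 25 loops (31 tags; 5 and 20 in the first and second part), surrounded Hes1, a transcriptional repressor that acts downstream of Notch. Its 18 merged anchors lay on both sides of the gene, toward Opa1, a GTPase of mitochondrial fusion, and toward Cpn2, a carboxypeptidase subunit. Hes1 was the nearest gene of 11 anchors and its promoter had 31 loops (225 tags), which run beside the promoter-less ones. The fourth chain held 18 loops within 531.7 kb at Skap1 and the HoxB cluster, all in the second part. In the chain an anchor used by 6 loops lay in a Skap1 intron, and the Skap1 promoter itself had 0 loops in the list. The fifth, also of 18 loops (7 and 11), lay around Bcor, a corepressor of a polycomb complex, on the X chromosome.

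**Figure D3:**
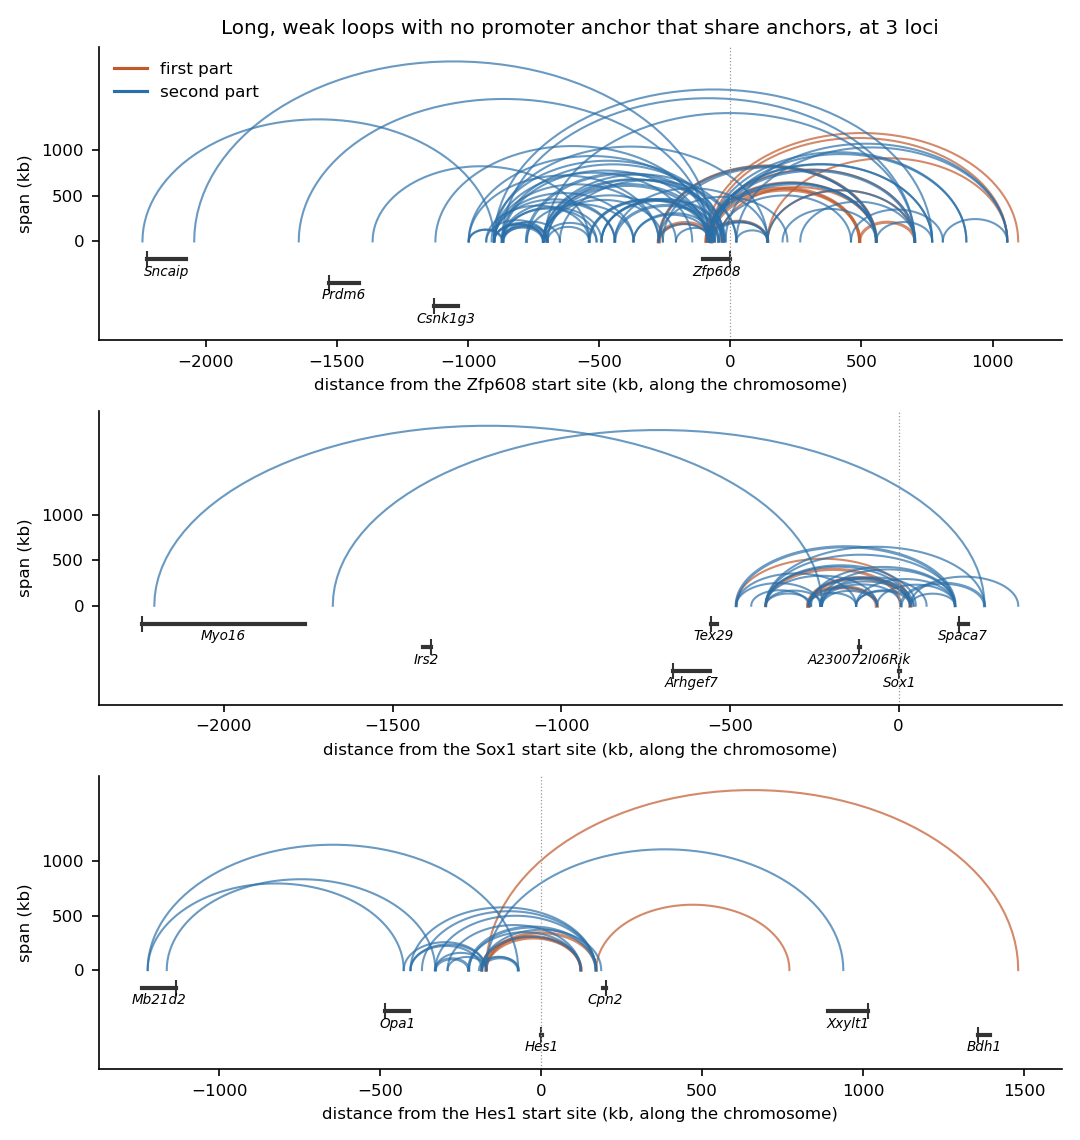
Long, weak loops with no promoter anchor in the 3 largest chains, drawn as arcs between anchor midpoints against the distance from the Zfp608, Sox1 and Hes1 start sites (x axis, kb), with the arc height equal to the span (y axis, kb), line width rising with tags (1 to 3), colors for the part of the list, and selected genes as bars with a tick at the TSS. The 89 arcs at Zfp608, 34 at Sox1 and 25 at Hes1 lie on both sides of the gene, most of them from the second part.

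Beyond these, the protein-coding genes nearest to the most anchors were Lrmda and Dnm3 with 12 each, Lmo4 with 12, Skap1 and Bcor with 10 each, and A230072I06Rik with 9. Lmo4, a LIM domain cofactor of transcription, was nearest to both ends of 8 loops, and the 10 loops that touched its surroundings came from both parts (4 and 6). Its promoter had 12 loops (28 tags). In all, 775 protein-coding genes were nearest to at least 1 anchor, 566 of them to just 1, and the 34 genes with 5 or more anchors accounted for 282 anchors.

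Genes of limb and mesenchyme patterning were nearest to an anchor in 14 of 36 cases (38.9%; 24.8 to 55.1), where 3.53% of all 21924 protein-coding genes were. The gene lists here and in the next paragraph were chosen with earlier results of these data known. Their shares are therefore description and no test of enrichment. Shox2 and Meis1, homeobox factors of the proximal limb, had 8 anchors each, at medians of 143.4 and 108.2 kb from the TSS. Their loops (8 and 5) were all in the second part. Meis2, a relative of Meis1, and Nfib, a nuclear factor I protein, had 4 anchors each, and Hand2, which patterns the early limb bud, had 3. Genes of neural and SyS development were nearest in 9 of 25 cases (36%; 20.2 to 55.5): after Sox1 came Tle4, a Groucho corepressor, with 4 anchors, Nr2f2, an orphan nuclear receptor, and Pax2, a paired box factor, with 3 each, and Irx2, an Iroquois homeobox factor, with 2.

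Signalling genes were nearest in 4 of 22 cases (18.2%; 7.31 to 38.5), with 1 anchor each at Fgfr1, Ptch1, Tgfb2 and Wnt11, which encode receptors of FGF and hedgehog and ligands of the TGF-beta and Wnt pathways. For matrix genes and for markers of cell types that a whole tumor can hold, the counts were near 0. The epithelial markers do not stand for other cells alone, since the paper describes epithelial SyS cells. None of 13 matrix, 10 macrophage, 9 skeletal muscle, 7 fibroblast and 6 epithelial genes was nearest to an anchor, and of 9 endothelial genes only Erg was, with 1 anchor. For lists this short the intervals of a count of 0 reach from 22.8% (matrix) to 35.4% (fibroblast) and beyond, so a share below that of all genes could not be seen.

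The study uses a set of genes called SAT, expressed in SyS cells and not in the mesenchymal cells of origin, and a set called MAT, expressed in both. Both were defined by associated work on single-cell RNA from SyS, so they are not independent of this tumor type. Of 185 SAT genes 22 were nearest to an anchor (11.9%; 7.99 to 17.3), and of 371 MAT genes 18 were (4.85%; 3.09 to 7.54). The SAT genes with the most anchors were Sox1 (7), Hmga2, a chromatin protein of embryonic growth (6), Pax2 and Sp9, a zinc finger factor of the limb ridge (3 each), and Bcl11b, a zinc finger factor of T cells and neurons (2). The MAT genes were led by Pard3, a polarity protein, with 5 anchors, and Tnrc6c, a silencing factor of the miRNA pathway, with 3, and genes with 2 included Cacna1a, a calcium channel, and Ptprm, a receptor phosphatase. Counting the nearest gene favors genes with few neighbors, and the part of gene spacing in these shares was not tested. The gap between the sets was narrower when genes were counted whose promoter another loop joined to an anchor. By that count the shares were 12.4% of SAT genes (23 genes; 8.43 to 17.96) and 7.28% of MAT genes (27 genes; 5.05 to 10.4). These intervals overlap, and both lie above the 4.81% of all protein-coding genes. Both sets were chosen for expression in SyS cells and that base was not, so it is not a matched one.

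Although no chosen loop touched a promoter, most of their anchors did so through other loops. In 725 of 879 loops (82.5%; 79.8 to 84.9) at least 1 anchor also overlapped the anchor of another loop that ended at a promoter, and in 382 (43.5%) both anchors did. Both ends led to the same gene in 204 loops (23.2%; 20.5 to 26.1). The remaining 154 loops (17.5%) had no such link. The share with a link was 95.9% (165 of 172) in the first part and 79.2% (560 of 707) in the second. A loop has 2 anchors that can be linked, so per anchor the value is lower, at 701 of 1271 distinct anchors (55.2%). The non-promoter end of a long, weak loop with 1 promoter anchor was joined to a promoter by another loop in 61.6% of cases (3096 of 5026). That value counts loop ends, so a shared anchor enters once per loop. It cannot be set directly against the share of distinct anchors. Counted over loop ends as well, the 725 loops with a link, 382 of them at both ends, give a share close to that 61.6%. Such links are therefore not particular to the loops without a promoter.

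The promoter of Zfp608 was joined to 24 anchors by 26 loops (54 tags), and that of Hes1 to 20 anchors by 21 loops (142 tags), each loop counted once. The Sox1 promoter was joined to 12 anchors, as was that of Gm25239, a non-coding gene beside it, and the promoter of the Sox1 overlapping transcript Sox1ot to 11. Noncoding genes filled most of the other top places, with AC129179.3 at 16, Gm26834 at 11, and 4632428C04Rik and Gm34073 at 10 each. AC129179.2 was joined to 9, as were the protein-coding genes Ing1, of the ING tumor suppressor family, and Mid1ip1, a regulator of lipid synthesis. Of 39 Hox genes, the homeobox genes of axial and limb position, 23 had a promoter joined to an anchor in this way (59.0%; 43.4 to 72.9), against 4.81% of all protein-coding genes, with Hoxb2 and Hoxb9 at 8 anchors each. Hox genes lie close together and share anchors, so these 23 are not separate observations. A promoter with many loops also has more chances to be joined, which these shares do not account for. The Hox list too was chosen with earlier results known, so its share is no test of enrichment. Only 5 Hox genes were the nearest gene of an anchor: Hoxb1 with 2 anchors, and Hoxb3, Hoxc4, Hoxc9 and Hoxd10 with 1 each.

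Few loops were seen in both parts of the list. A loop of the other part had both anchors within 5 kb of those of 36 of the 879 loops (4.10%; 2.97 to 5.62), against 8.05% of all long loops of 3 tags or fewer. The comparison turned on the part. From the first part, 15 of 172 loops (8.72%; 5.36 to 13.9) were found again, beside 4.71% (94 of 1996) and 7.25% (743 of 10255) of those with 1 and 2 promoter anchors. From the second part the value was 2.97% (21 of 707; 1.95 to 4.50), beside 4.65% (141 of 3030) and 12.5% (798 of 6363; 11.8 to 13.4). The intervals of loops with no promoter and those with 1 overlapped in the second part and met narrowly in the first. When both anchors had to overlap, 24 of the 879 loops remained, and within 25 kb 102 did.

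**Figure D4:**
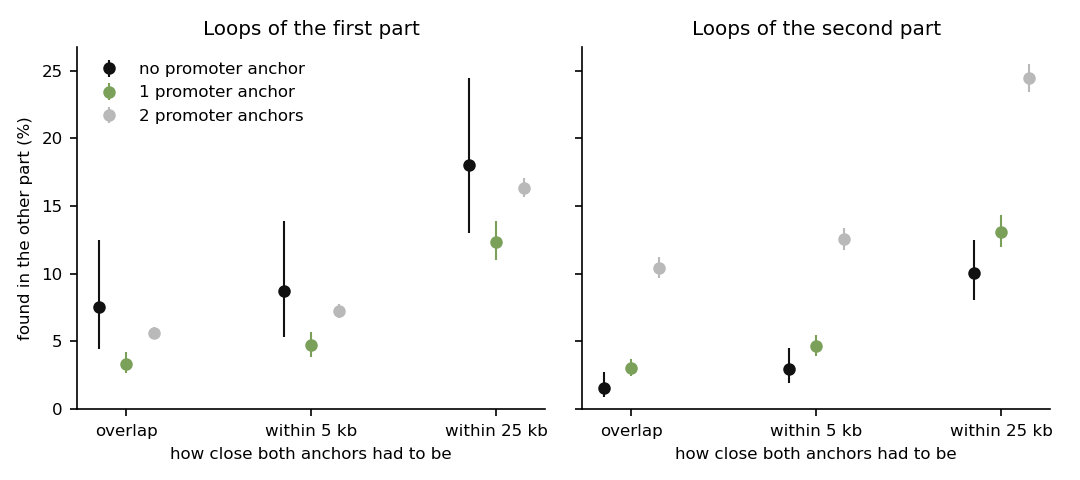
Share of long loops of 3 tags or fewer (y axis, percent, with Wilson 95% intervals) that have a counterpart in the other part of the list, for loops with no, 1 or 2 promoter anchors, when both anchors have to overlap, lie within 5 kb or lie within 25 kb. Within 5 kb, loops without a promoter were found again in 8.72% of cases from the first part (left) and 2.97% from the second (right).

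Of these 36 loops, 25 had a counterpart that was itself free of promoters, and 6 had counterparts with more than 3 tags in total. Their spans lay between 202.5 and 829.6 kb, and they came from 16 chains. The most tags over both parts stood behind a loop at Meis2, with 3 tags in the first part and 8 in 2 matching loops of the second, which touch a promoter. A loop inside Mecom had 2 tags in the second part and 7 in the first, and one from an exon of Shox2 to a site 322.1 kb downstream had 1 and 6. The counterparts of the Mecom and Shox2 loops also touch a promoter. At Hes1 a loop of 307.0 kb had 1 tag in the second part, and its 2 counterparts in the first had 6 tags and no promoter anchor. The others with 5 tags in all ran from the surroundings of Zfp503, a zinc finger repressor, into Lrmda, from the Tex29 to the A230072I06Rik region near Sox1, and from beside Hoxc4 to Gpr84. Among these, only the Tex29 loop had a counterpart without a promoter anchor. The 3 that follow had 3 tags in the first part and 1 in the second: a pair in the Sox1 chain and one from an Agap1 intron to the Gbx2 region, Gbx2 being a homeobox gene of the hindbrain.

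All 10 loops with the lowest FDR had 3 tags, and 6 of them were in the first part of the list and 4 in the second. The lowest of all, 3.44e-06, joined an intron of Tox3, which encodes a high mobility group protein, to an intergenic site 389.0 kb away. The second, 3.96e-06, spanned 956.3 kb from beside Mpdz to an intron of Nfib, and both of its anchors were joined to the Nfib promoter by another loop. The third lay between the surroundings of Lbx1, a homeobox gene of migrating muscle precursors, and an intron of Btrc. The fourth joined an intron of Ptch1 to a site 453.1 kb away, with both ends linked to the Ptch1 promoter. The others lay within Clybl beside Zic2, between Boc and Nepro, beside Bcor, at Cdx2, a homeobox gene of the hind body, at Fzd1, a Wnt receptor, and at Sox1. The counterpart rule found only the Sox1 loop of these 10 in the other part of the list.

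In sequence the anchors resembled the other distal anchors of the list and not its promoters. Median GC content was 46.9% (interval, 46.6 to 47.3), the same as the 46.9% (46.7 to 47.2) of other non-promoter anchors, and promoter anchors had 52.5%. In the first part of the list the value was 48.0% (47.1 to 48.6) against 46.7% (46.2 to 47.1), and in the second 46.7% (46.3 to 47.1) against 47.2% (46.9 to 47.5). The ratio of observed to expected CpG in the central 1 kb had a median of 0.269 (0.257 to 0.278), above the 0.239 (0.234 to 0.245) of other non-promoter anchors and below the 0.697 of promoters. It was above in both parts, at 0.298 against 0.233 and 0.265 against 0.245. A ratio of 0.6 or more was met by 6.22% of the anchors, 5.13% of the other non-promoter anchors and 66.2% of promoter anchors. Repeats made up a median of 16.6% of the bases. Both kinds of distal anchor had a median of 4 MboI sites, GATC, at which the chromatin had been cut, and 2 of the 1271 anchors had none.

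Motif matches in the central 1 kb followed the same division. TAATTA, the core that many homeodomain proteins bind, was found in 21% of anchors (18.9 to 23.3), in 18.4% (16.9 to 19.9) of other non-promoter anchors and in 9.34% of promoter anchors. TGANTCA, the AP-1 site, was in 25.6%, 24.4% and 15.4%. ACAATG, bound by SOX factors, was in 38.6%, 38.9% and 22.6%, and CAGCTG, an E-box, in 46.5%, 48.6% and 40.9%. GGAATG (TEAD) was in 43.6%, 44.3% and 34.8%, and TGTGGTT (RUNX) in 19.9%, 20.7% and 12.3%. For each of these 6 motifs the intervals of both distal sets overlapped, also within each part of the list. Among 25592 windows of 1 kb placed evenly along the genome, the shares were 31.1% for TAATTA, 26.3% for TGANTCA, 48.9% for ACAATG, 30.3% for CAGCTG, 43.5% for GGAATG and 21.1% for TGTGGTT. Of these 6 motifs, only the E-box had an interval above its genome share. The intervals of TAATTA and ACAATG lay below theirs, and those of the other motifs held it. These matches are descriptions of letters and not of binding, and they move with base composition.

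**Figure D5:**
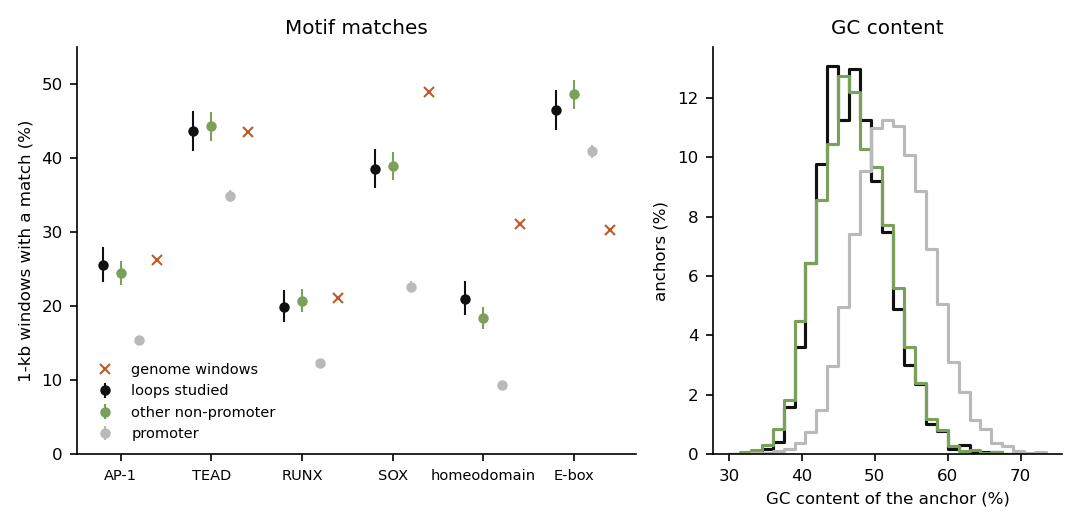
Left, share of central 1-kb windows (y axis, percent, with Wilson 95% intervals) that hold a match to each of 6 motifs, for the anchors of the loops studied (black), other non-promoter anchors (green), promoter anchors (gray) and evenly placed genome windows (crosses). Right, distribution of anchor GC content (percent) in the same 3 sets of anchors, with medians of 46.9, 46.9 and 52.5%.

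The CTCF core, in convergent orientation at the left and right anchors, was found in 0 of 879 loops, which allows a share of up to 0.341% by a floor of 3 loops and 0.435% by the Wilson interval. With 1 and 2 promoter anchors, 5 of 5026 and 8 of 16618 long, weak loops had such a pair. A core in any orientation was present at both anchors of 3 of the 879 loops. Pairs of this strict core are thus too rare here for a difference between classes to be seen. In the central 1 kb, 1.57% of the anchors (1.02 to 2.42) held a core. The share was 2.60% (2.06 to 3.28) for other non-promoter anchors, 1.39% for promoter anchors and 0.461% for the evenly placed genome windows. With a looser form of the core, chosen after these values were seen, 14 loops (1.59%; 0.951 to 2.66) had a convergent pair and 9 a divergent one. The convergent share was 1.61% and 1.70% for loops with 1 and 2 promoter anchors, inside the interval of the loops without one.

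TSSs came from a single annotation, and this decided which anchors counted as free of promoters. By RefSeq, which lists other transcripts, 140 of the 1271 anchors (11%) and 194 of the 879 loops (22.1%) had a TSS within 2 kb of an anchor.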

How the data were processed

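Loops came from H3K27ac HiChIP of 2 hSS2 mouse tumors, digested with MboI. Per the methods, the authors mapped reads to mm10 with HiC-Pro and called loops with hichipper, and the tag count and FDR (a corrected p-value from Mango) of each loop were used as deposited, with both tumors merged. The sources give both 0.05 and 0.01 as the FDR limit, and most FDR values here lie above 0.01. How counts were merged, and which tumor gave which part of the list, was not given in the sources used here. Columns of other samples numbered 0.

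Anchors were set against GENCODE gene models and RefSeq sequence of GRCm38 with networkx 3.6.1, scipy 1.17.1, numpy 2.4.6 and pandas 2.3.3 under Python 3.11.15, and plotted with matplotlib 3.10.9. A promoter was a TSS with 2 kb on either side. The steps were tested on simulated data. No test between groups was run, since no value per tumor exists. Named items were the 10 loops of lowest FDR, the 10 found again with the most tags, the longest and shortest, the 10 most shared anchors, the genes with the most anchors, and up to 5 genes a list, of which 1 is not reported here. Members and lists were chosen with earlier results of these data known. Alternatives changed the promoter window and annotation, span, tags, FDR, list part, matching distance and CTCF core.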

Additional observations from a re-analysis of the deposited data

How the results depend on the processing

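Of 81 alternative values, 55 stayed inside the interval of the reported one (for the number of loops, within 1.5 times of it) and 26 moved beyond that. Restricted to loops of 2 or 3 tags, 94 loops were left, with 46.7% of anchors in gene bodies, 94.7% of loops linked to a promoter, 14.9% found again, a median span of 254.6 kb and a GC content of 47.6%. At an FDR under 0.01 the 78 loops gave 47.5%, 73.1%, 300.1 kb and 47.6% for gene bodies, links, span and GC content. The first part of the list alone held 172 loops and gave 44.0% in gene bodies, 93.6% linked, 575.5 kb and 48.0% GC, and the second part alone gave 75.7% linked and 329.6 kb. Linking uses only loops of the same part there, and at an FDR under 0.01 only loops under that limit. Both leave out links and so lower the linked share by construction. A minimum span of 200 kb raised the median to 487.4 kb, also by construction. Counting bodies of protein-coding genes alone gave 45.5%. Links within 5 kb gave 85.6%. Loops were found again in 2.73% of cases when anchors had to overlap and in 11.6% within 25 kb.

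RefSeq TSSs, the list without chromosome 18 and the looser CTCF core were chosen after seeing the data. With RefSeq TSSs 58.7% of anchors lay in gene bodies and 78.9% of loops were linked, and with the looser core 1.59% of loops had a convergent pair. Without chromosome 18 none of the values moved by that measure. The cause of the other moves was not tested. No paired analysis was possible because the deposited list pools both tumors. Most loops rest on 1 tag, which limits every count given here.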

Other observations

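Some smaller chains, picked after their values were seen, are given here by their genes. A chain of 10 loops (3 in the first part of the list and 7 in the second) spanned 1978 kb from Sp9 and Sp3 to Evx2, a homeobox gene at the end of the HoxD cluster, with a median span of 583.9 kb. At Clybl and Zic2, a zinc finger factor of the neural tube, 9 loops of the second part ran over 794.9 kb. A chain of 9 loops with 13 tags joined Agap1 to the surroundings of Gbx2, and 2 of these loops were found again. Another 9 loops, all of the second part, joined Malt1, Zfp532 and Oacyl within 254.0 kb. Chd7, a chromatin remodeler of the neural crest, stood in a chain of 8 loops of which 6 were in the first part. That ratio is the reverse of the one over all 879 loops, and it was not tested.

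At Dnm3 the chain held 14 loops, all from the second part, and reached Prrx1, a homeobox gene of limb mesenchyme, and Gorab. Anchors there were also joined to the promoters of the noncoding genes Dnm3os and Mir199a-2, each to 6 anchors by loops of 12 tags. These genes lie inside Dnm3.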
